A study of Mus musculus with 9 samples.

Results

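Schwann cells, the glia of peripheral nerve, are not the cells that were meant to be collected when hair cells (HCs) of the mouse inner ear were sorted. The transcripts of 8 genes with known work in Schwann cells and their myelin, *Sox10*, *Egr2*, *Erbb3*, *Cnp*, *Mbp*, *Prx*, *Mal* and *Pmp22*, were therefore followed as a measure of glial RNA in the sorted samples. They were found by gene name among the 43808 genes of the count tables, and all 8 were present there. HCs of both cochlea and vestibule came from P1 mice (postnatal day 1) carrying the *Atoh1*/nGFP reporter, which puts green fluorescent protein into HCs, and cells positive for GFP and for the epithelial surface protein CD326 were kept. There were 3 libraries from mice homozygous for the Dmdo allele of *Mir96* (Hom, 2 Dmdo alleles), 3 from heterozygotes (Het, 1 Dmdo allele) and 3 from wild-type mice (WT, 0 Dmdo alleles), each library from 1 mouse. All 9 mice carried the reporter, and they came from a cross of the Dmdo stock on C3HeB/FeJ with reporter mice, so the genetic background was mixed. The Dmdo allele is carried by every cell of the animal and not by HCs alone.

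In a developing nerve, axons display neuregulin to Schwann cells, whose ErbB3 receptor keeps them alive and growing. SOX10 holds the Schwann cell lineage in place and, together with EGR2, switches on the genes of the myelin sheath. The sheath is built of compacted membrane held together by proteins such as PMP22 and MBP, while CNP and periaxin stay in the parts that keep some cytoplasm. Schwann cells accompany the nerve fibres that reach HCs, and myelination of these fibres has only started around birth. Several of the 8 genes are not private to glia: SOX10 is made in the epithelium of the developing inner ear, EGR2 is also an early response gene that many stressed or stimulated cells induce, and *Mbp* also yields the golli transcripts, found outside myelin. The deposited counts are per gene and do not separate these forms.

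The Dmdo allele changes a base in the seed of miR-96, the stretch of bases 2 to 8 through which the microRNA finds its targets. Both forms are shown because the question of the series is what this change does to transcripts. The mature miR-96-5p lies on the minus strand at chr6:30169506-30169528 (RefSeq, GRCm38.p6), 5′ to 3′ with the seed in capitals.
miR-96-5p: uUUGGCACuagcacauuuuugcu
Dmdo form: uUUGGCUCuagcacauuuuugcu
A transcript that matches the seed carries GTGCCAA for the wild-type form or GAGCCAA for the Dmdo form. Neither stretch of 7 letters occurred in the longest annotated 3′ UTR (GENCODE vM21) of any of the 8 genes, where *Prx* was represented by the transcript Prx-203. Its stretch held 4701 bases, where all exons of the gene make 5579, so it may include bases that other *Prx* transcripts translate. Among 12980 tested genes with a 3′ UTR, 9.83% held the first and 10.4% the second. The search covered perfect 7-letter matches in that stretch only, and says nothing of other kinds of site.

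Libraries held 18175317 to 30932531 reads assigned to genes in Hom HCs, 29470207 to 34873964 in Het HCs and 19677015 to 28486252 in WT HCs, so that 1 read was worth between 0.0287 and 0.0550 CPM (a gene's reads scaled to a common library total). The HC transcription factor *Pou4f3* was at 1049 to 1294 CPM and the gene of CD326, *Epcam*, at 275 to 449 CPM in all 9 libraries. Both transcripts were thus present throughout, though other genes of the same kind varied more. The summed level of 10 HC genes was 9011, 8978 and 10546 CPM in Hom HCs, against 10379, 13431 and 12225 CPM in Het HCs and 10542, 14165 and 14618 CPM in WT HCs. Of these 10 genes, 8 had a log2 fold change below 0 in Hom vs WT, and *Espn*, an actin bundler of stereocilia, was called lower (-1.18, edgeR adjusted p = 0.0236). The epithelial keratin gene *Krt18* was at 2.08 CPM in WT 59, against 51.4 to 124 CPM in the other 8 libraries. Among the 8 Schwann cell and myelin genes, WT 59 was the lowest library for 4, and Hom 46 the highest for 4. The summed level of 8 mesenchyme and fibroblast genes was 185, 928 and 261 CPM in Hom HCs, against 253, 241 and 198 CPM in Het HCs and 206, 306 and 267 CPM in WT HCs. The oligodendrocyte transcripts *Mog*, *Opalin*, *Olig2* and *Ermn* were at 0 in all 9 libraries, as were all 5 red blood cell genes. Values of single libraries are given below by rising mouse number, 43, 46 and 47 for Hom, 45, 48 and 51 for Het, and 44, 55 and 59 for WT.

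The 8 genes formed 2 kinds by level. *Cnp*, *Egr2*, *Sox10* and *Erbb3* were present at more than 20 CPM in every library, while *Mbp*, *Prx*, *Mal* and *Pmp22* fell to under 1 CPM in at least 1 of them. This division was made after the values were seen, and serves as a description. Corrected for exon length, the mean level over the 9 libraries was 221 TPM (reads per exon base, scaled to a common total) for *Cnp*, 86.2 for *Egr2*, 73.4 for *Sox10*, 26.7 for *Erbb3*, 9.72 for *Mbp*, 5.35 for *Pmp22*, 4.65 for *Prx* and 2.42 TPM for *Mal*. In that order each gene overlapped with its neighbour over the 9 libraries, *Cnp* (158 to 299 TPM) and *Egr2* (40.7 to 159 TPM) only at their edges. Between the lowest and the highest library, log2 CPM differed by 1.21 for *Cnp*, 1.65 for *Egr2*, 2.03 for *Erbb3* and 2.71 for *Sox10*, where the median of all 15184 genes tested was 2.36. The same range was 6.95 for *Prx*, 7.51 for *Mal*, 7.78 for *Mbp* and 9.01 for *Pmp22*, at the 91.5th to 99.9th percentile of all genes tested.

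**Figure D1:**
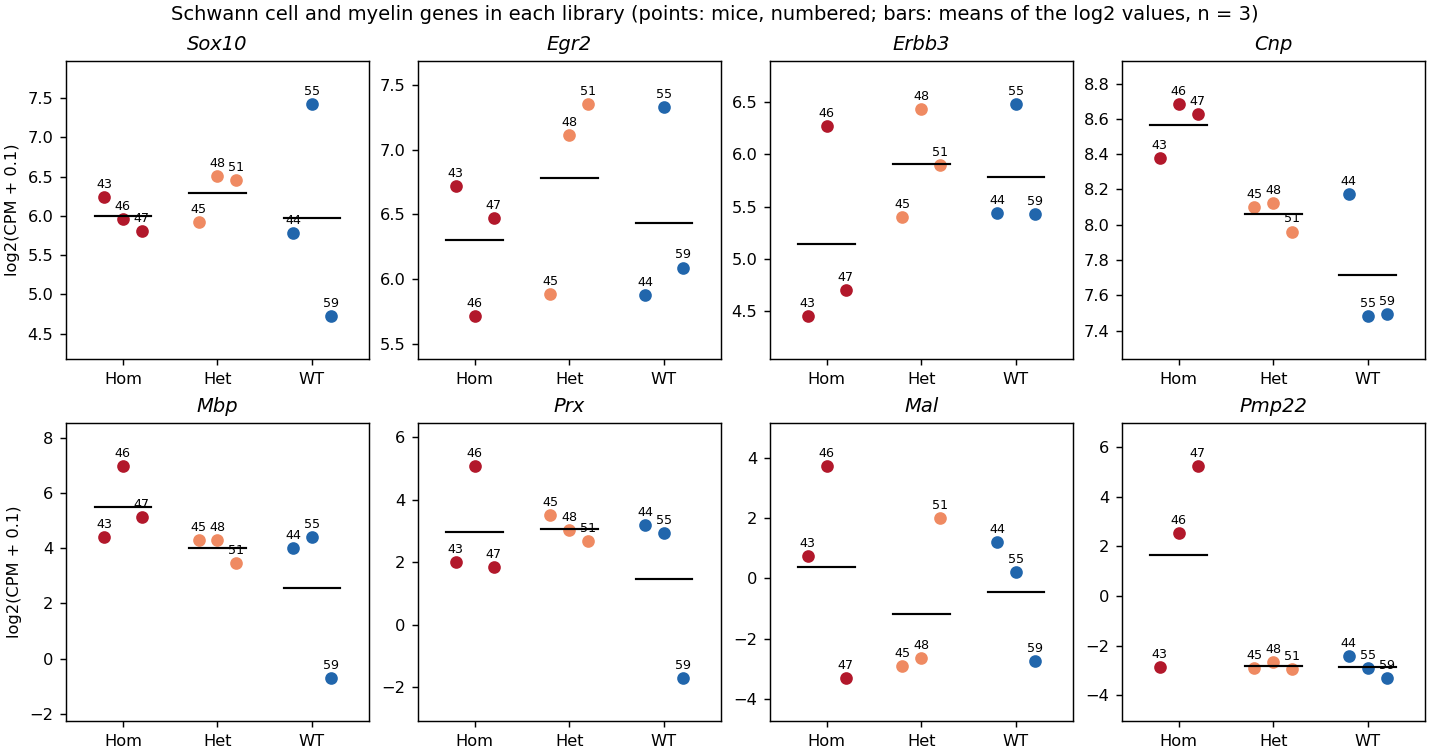
Level of each gene in each library, as log2 of CPM plus 0.1 on axes that differ between panels, for Hom, Het and WT HCs from left to right. Points are single mice with their numbers and bars are means of the log2 values of 3 mice; *Cnp* alone has all Hom points above all Het and WT points, and the upper row spans a far narrower range than the lower row.

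The lineage regulators did not separate the genotypes. *Sox10* (chr15:79154908-79165240, minus strand), the transcription factor that specifies glia from neural crest, had 75.5, 62.1 and 55.7 CPM in Hom HCs, against 60.3, 91.0 and 87.9 CPM in Het HCs and 54.8, 172 and 26.3 CPM in WT HCs. The WT libraries held both its highest value, in WT 55, and its lowest, in WT 59, so that all other libraries lay inside the WT range. Its log2 fold change was -0.46 ± 0.48 (SE, n = 3 each) for Hom vs WT, with an adjusted p of 0.753 from edgeR's quasi-likelihood test, and it was 0.58 without WT 55.

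*Egr2* (chr10:67535475-67542188, plus strand), the regulator that starts myelination, had 105, 52.3 and 88.8 CPM in Hom HCs, against 58.8, 138 and 164 CPM in Het HCs and 58.7, 161 and 68.0 CPM in WT HCs. High and low libraries occurred in each genotype, and the groups overlapped. Its log2 fold change for Hom vs WT was -0.31 ± 0.42 (SE, n = 3 each, edgeR adjusted p = 0.824), and 0.27 without WT 55. Immediate early genes, which cells induce during dissociation, varied between libraries too. *Egr1*, a relative of *Egr2* and such a gene, had 969, 1199 and 1019 CPM in Hom HCs, against 791, 1809 and 1637 CPM in Het HCs and 928, 2611 and 1576 CPM in WT HCs. Hom 46 went against this, with the lowest level of *Egr2* and the highest *Egr1* of the Hom libraries. Over the 9 libraries the log2 CPM of *Egr2* had a Pearson correlation of 0.70 with *Egr1*, 0.71 with *Nr4a1*, 0.52 with *Fosb* and 0.49 with *Egr3*. These were picked from 10 listed early response genes, and the values are a description over libraries that share their depth. They were not particular to *Egr2*. In the same order *Erbb3* had 0.70, 0.68, 0.83 and 0.69, while *Cnp* had -0.64, -0.13, -0.56 and -0.65. The part of dissociation in the level of *Egr2* was not tested.

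*Erbb3* (chr10:128567523-128589652, minus strand), the neuregulin receptor that signals as a partner of ERBB2, had 21.8, 76.9 and 25.9 CPM in Hom HCs, against 42.1, 86.1 and 59.6 CPM in Het HCs and 43.2, 89.3 and 42.99 CPM in WT HCs. Each genotype had 1 library well above the other 2, and Hom 43 and Hom 47 were the lowest of the 9, below every Het and WT library. With Hom 46 the groups overlapped, and the log2 fold change for Hom vs WT was -0.56 ± 0.49 (SE, n = 3 each, edgeR adjusted p = 0.689). Without Hom 46 it was -1.36, and still not called.

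*Cnp* was the member with the most regular pattern over genotypes. It encodes a cyclic nucleotide phosphodiesterase, abundant in the cytoplasmic channels of myelin and present at lower levels in other cells. *Cnp* (chr11:100574904-100591729, plus strand) had 332, 412 and 395 CPM in Hom HCs, against 275, 279 and 249.2 CPM in Het HCs and 289, 179 and 180 CPM in WT HCs. All 3 Hom libraries were above all Het and all WT libraries, while the Het and WT ranges overlapped through WT 44. The means were 380 ± 42.0 CPM in Hom, 268 ± 16.1 CPM in Het and 216 ± 63.1 CPM in WT HCs (SD, n = 3 each). The log2 fold change was 0.74 ± 0.25 for Hom vs WT (SE, n = 3 each, edgeR adjusted p = 0.213), 0.51 for Hom vs Het (adjusted p = 0.730) and 0.22 for Het vs WT (adjusted p = 1). It did not pass the threshold in any of these, but without WT 44 it was called in Hom vs WT, at a log2 fold change of 1.00 (adjusted p = 0.0321), in a fit that called 4.66% of all genes. DESeq2 also called it in Hom vs WT with all libraries, at 0.76 (adjusted p = 0.0617). A stretch of 154 exon bases of *Cnp* overlaps *Dnajc7* on the other strand, and for the counting no strand setting was found in the paper or the labels. *Dnajc7* was at 197 to 339 CPM, and part of these reads may be shared between both genes.

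The promoter of *Cnp* is shown because, of the members, it alone had all Hom libraries above all Het and WT libraries. A further reason is that SOX10 and EGR2 are the factors whose transcripts were measured beside it. Groups without overlap were found for 16.9% of all genes in Hom vs WT and 14.1% in Hom vs Het. The choice of *Cnp* is therefore an illustration and no result about it. It runs from 250 bases before to 50 after the transcription start (chr11:100574689-100574988, plus strand, RefSeq GRCm38.p6), with the capitals marking the only match to the SOX letters ACAAAG or ACAATG, searched on both strands.
Cnp: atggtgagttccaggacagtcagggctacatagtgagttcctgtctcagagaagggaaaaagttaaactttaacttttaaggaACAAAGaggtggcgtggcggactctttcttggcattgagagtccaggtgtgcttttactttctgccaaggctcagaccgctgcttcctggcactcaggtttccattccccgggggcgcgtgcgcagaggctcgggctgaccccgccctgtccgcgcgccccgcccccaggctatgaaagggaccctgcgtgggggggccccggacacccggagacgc
The match starts at position -167 from the transcription start. These letters occur in 28.4% of 32544 mouse promoters of the same length, and the EGR letters GCGNGGGCG, absent from this stretch, in 5.60%. Promoter entries were matched for *Egr2*, *Prx*, *Mal* and *Pmp22* as well, and none of these held either motif. A match of letters is a description and no evidence of binding.

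The sheath genes were low in most libraries and high in a few. *Mbp* encodes the basic protein that draws the inner faces of the myelin membrane together. It had 21.0, 128 and 34.9 CPM in Hom HCs, against 19.4, 19.4 and 10.9 CPM in Het HCs and 15.9, 21.2 and 0.508 CPM in WT HCs. Hom 46 was the highest, Hom 47 second and WT 59, with 10 reads, the lowest. The Hom libraries were all above the Het libraries but overlapped with WT 55, which slightly exceeded Hom 43. The mean was 61.2 ± 58.0 CPM in Hom, 16.6 ± 4.94 CPM in Het and 12.5 ± 10.8 CPM in WT HCs (SD, n = 3 each), so the SD in Hom HCs was close to the mean. The log2 fold change was 2.24 ± 0.92 for Hom vs WT (SE, n = 3 each, edgeR adjusted p = 0.311) and 1.91 for Hom vs Het (adjusted p = 0.730), and neither was called. For Hom vs WT it was 1.12 without Hom 46 and 1.68 without WT 59.

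*Prx* encodes periaxin, the scaffold that links the Schwann cell cytoskeleton to its outer membrane. *Prx* (chr7:27499324-27520214, plus strand) had 3.89, 34.1 and 3.52 CPM in Hom HCs, against 11.4, 8.02 and 6.25 CPM in Het HCs and 9.12, 7.58 and 0.203 CPM in WT HCs. The other 2 Hom libraries were below all 3 Het libraries and below WT 44 and WT 55, so the excess in Hom HCs came from Hom 46 alone. The log2 fold change for Hom vs WT was 1.25 ± 1.29 (SE, n = 3 each, edgeR adjusted p = 0.749) and turned to -0.65 without Hom 46. A stretch of 300 exon bases is shared with *Gm15541*, an antisense gene, which had 1.80, 9.57 and 1.58 CPM in Hom HCs, against 0, 0 and 0.602 CPM in Het HCs and 0.0447, 0 and 0 CPM in WT HCs. Reads of the pair may be mixed, since the strand setting is unknown.

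*Mal*, a small membrane protein of lipid rafts in myelin and in polarised epithelium, lies at chr2:127633226-127656695 on the minus strand. It had 1.58, 13.3 and 0 CPM in Hom HCs, against 0.0339, 0.0599 and 3.93 CPM in Het HCs and 2.19, 1.05 and 0.0508 CPM in WT HCs. Hom 47, Het 45, Het 48 and WT 59 had 0, 1, 2 and 1 reads, and Hom 46 had 241. Libraries with and without *Mal* thus occurred in each genotype. The log2 fold change for Hom vs WT was 2.13 ± 2.43 (SE, n = 3 each, edgeR adjusted p = 0.782), and -0.54 without Hom 46.

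*Pmp22* encodes a tetraspan protein of compact peripheral myelin, whose gene dosage is altered in human Charcot-Marie-Tooth neuropathy. *Pmp22* (chr11:63128982-63159547, plus strand) had 1, 103 and 1169 reads in Hom HCs, against 1, 2 and 1 reads in Het HCs and 2, 1 and 0 reads in WT HCs. This corresponds to 0.0360, 5.67 and 37.8 CPM in Hom HCs, against at most 0.0599 CPM in Het HCs and at most 0.0894 CPM in WT HCs. Hom 46 and Hom 47 had the transcript, while Hom 43 was as low as the Het and WT libraries and the groups overlapped. The pooled Hom libraries had 389 times the CPM of the pooled WT libraries (exact 95% interval 133 to 1890, from 1273 and 3 reads) and 405 times that of the Het libraries (158 to 1487, from 1273 and 4 reads). These intervals cover counting error only and not the spread between mice. The fitted log2 fold change was 8.22 ± 2.47 for Hom vs WT (SE, n = 3 each, edgeR adjusted p = 0.153) and 8.32 ± 2.46 for Hom vs Het (adjusted p = 0.698), values that depend on the prior count given to genes with so few reads. *Pmp22* passed the filter on low counts only through Hom 46 and Hom 47, and left the fit when either was omitted.

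**Figure D2:**
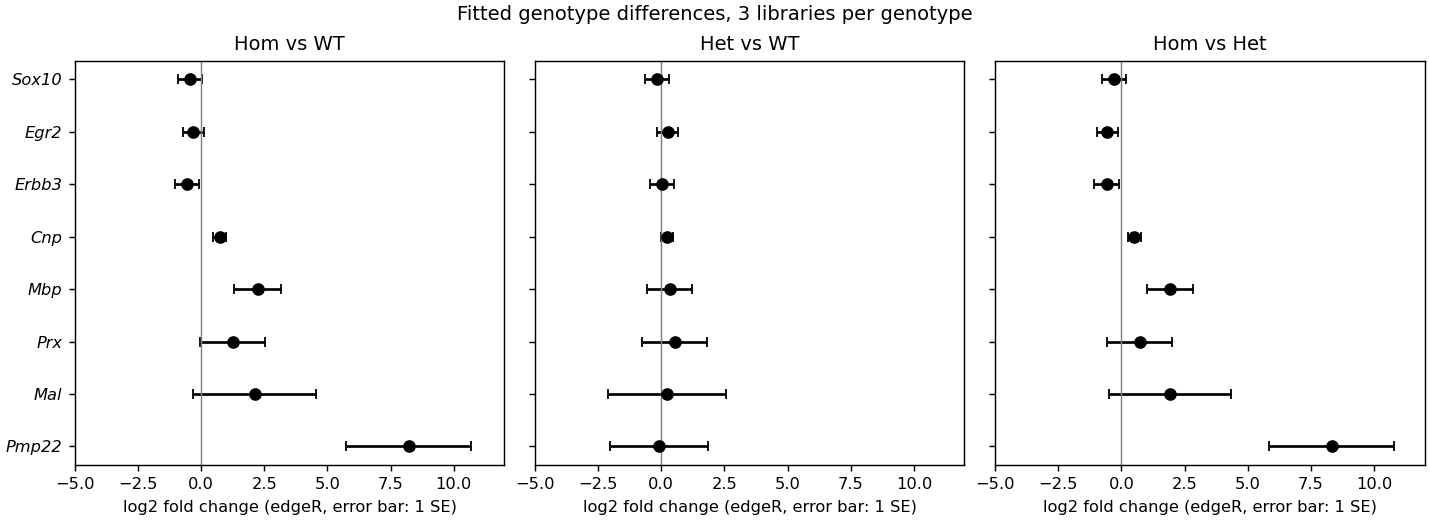
Fitted log2 fold changes of the 8 genes (horizontal axis) for Hom vs WT, Het vs WT and Hom vs Het, with 3 libraries per genotype. Error bars are 1 SE, derived from edgeR's fold change and F statistic. *Pmp22* lies far to the right in both comparisons of Hom HCs, at 8.22 and 8.32, with an SE of about 2.5 log2 units, while all 8 genes lie within 0.53 of 0 in Het vs WT.

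Of the 8 genes, 0 were called in Hom vs WT with an adjusted p under 0.1 and more than 1.5-fold change, where 1.15% of all genes tested were called. At an unadjusted p under 0.05, *Cnp*, *Mbp* and *Pmp22* passed in this comparison, all higher in Hom HCs, as did 13.1% of all genes. DESeq2, which called 6.36% of all genes, called *Cnp* and *Pmp22* (8.38, adjusted p = 0.000582). The calls of *Pmp22* rest on Hom 46 and Hom 47, through which alone it passed the filter, and Hom 43 with 1 read did not share the difference. Without the filter on low counts edgeR called 2.79% of all genes, among them *Mbp* (2.24, adjusted p = 0.0213) and *Pmp22* (8.24, adjusted p = 0.0534). The median log2 fold change of the 8 genes in Hom vs WT was 1.00, with 5 above 0, beside a median of -0.02 over all genes tested, of which 49.1% were above 0. Of these 5, *Prx* and *Mal* turned to -0.65 and -0.54 without Hom 46, and *Pmp22* then left the fit. The median thus rests in part on 1 library, and a shift of the set was not tested.

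In Het vs WT, 0 of the 8 genes and 0.0% of all genes were called by edgeR, with 0 of the 8 and 686 of all genes (4.52%) at an unadjusted p under 0.05. DESeq2 called 46 genes and limma-voom 1 gene in this comparison, none of them among the 8. The median log2 fold change of the 8 genes was 0.22 in Het vs WT. In Hom vs Het, 0 of the 8 and 0.00659% of all genes were called by edgeR, and *Pmp22* was the member with an unadjusted p under 0.05, as 6.78% of all genes had. DESeq2 called *Pmp22* there (8.49, adjusted p = 0.00111), among 0.968% of all genes. Both values of *Pmp22* rest on the same Hom libraries as in Hom vs WT, through which alone it passed the filter. The median log2 fold change of the 8 genes was 0.62 in Hom vs Het. With 1 library left out, *Prx* and *Mal* fell as low as -1.20 and -0.78 there, so this median depends on single libraries too. Both comparisons of Hom HCs use the same 3 Hom libraries, and those with WT HCs the same 3 WT libraries.

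Over the 3 genotypes together, edgeR called 0 of the 8 and 0.178% of all genes, with *Pmp22* (adjusted p = 0.141), *Cnp* (0.417) and *Mbp* (0.481) at an unadjusted p under 0.05, as were 9.42% of all genes. DESeq2 called *Pmp22* (adjusted p = 0.000778) among 2.3% of all genes. edgeR without a filter on low counts called *Mbp* and *Pmp22* among 1.86% of all genes, and without WT 44 it called *Cnp* and *Pmp22* among 2.17%. The calls of *Pmp22* over the 3 genotypes carry the limit given above for Hom vs WT. They rest on the same Hom libraries, and where a filter was used *Pmp22* passed it through these alone. In CPM, groups that did not overlap were found for 1 member, *Cnp*, in Hom vs WT, where 16.9% of all genes had this. They were found for *Cnp* and *Mbp* in Hom vs Het, where 14.1% of all genes had it, and for 0 members in Het vs WT, where 10.9% had it. Counts of 1 and 2 of 8 genes are close to these shares, and are no result about the members.

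Added up, the 8 genes made 561, 784 and 642 CPM in Hom HCs, against 467, 622 and 582 CPM in Het HCs and 472, 631 and 318 CPM in WT HCs. Less than 0.1% of any library therefore came from them, and *Cnp* was the largest contributor in each of the 9. The mean sum was 662 ± 113 CPM in Hom, 557 ± 80.6 CPM in Het and 474 ± 156 CPM in WT HCs (SD, n = 3 each). The Hom mean exceeded the WT mean by 189 CPM, with overlap of the groups, and by 50.02 CPM when both Hom 46 and WT 59 were left out. Supporting cell genes, 11 of them, added up to 4346, 4318 and 3702 CPM in Hom HCs. They made 3735, 3361 and 3430 CPM in Het HCs and 3762, 3273 and 2494 CPM in WT HCs. WT 59 was the lowest library in both sums, but Het 45 was the lowest Het library for the 8 genes and the highest for the supporting cell genes. Gene by gene, 5 of the 11 had a log2 fold change above 0 in Hom vs WT, with a median of -0.21. The sum of the HC genes, given above, was lower in Hom HCs on average, 9512 CPM against 13108 CPM in WT HCs. Over the 9 libraries the log2 CPM of *Cnp* had a Pearson correlation of -0.80 with *Myo7a* and of -0.76 with *Otof*, both picked from the 10 HC genes. Both were lower in Hom vs WT, at log2 fold changes of -0.88 and -1.07, so these correlations include the genotype difference. *Pou4f3* (0.03) and *Pvalb* (1.10) were the 2 HC genes above 0 in that comparison. The part of these cell types in the sum of the 8 genes was not tested. *Mbp*, *Prx*, *Mal* and *Pmp22* alone added up to 26.5, 181 and 76.2 CPM in Hom HCs, against 30.9, 27.5 and 21.1 CPM in Het HCs and 27.3, 29.9 and 0.762 CPM in WT HCs. Hom 43 was within the Het and WT values in this sum, and Hom 46 and Hom 47 were above them. In these bulk samples, more cells of a type and more RNA per cell cannot be told apart.

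**Figure D3:**
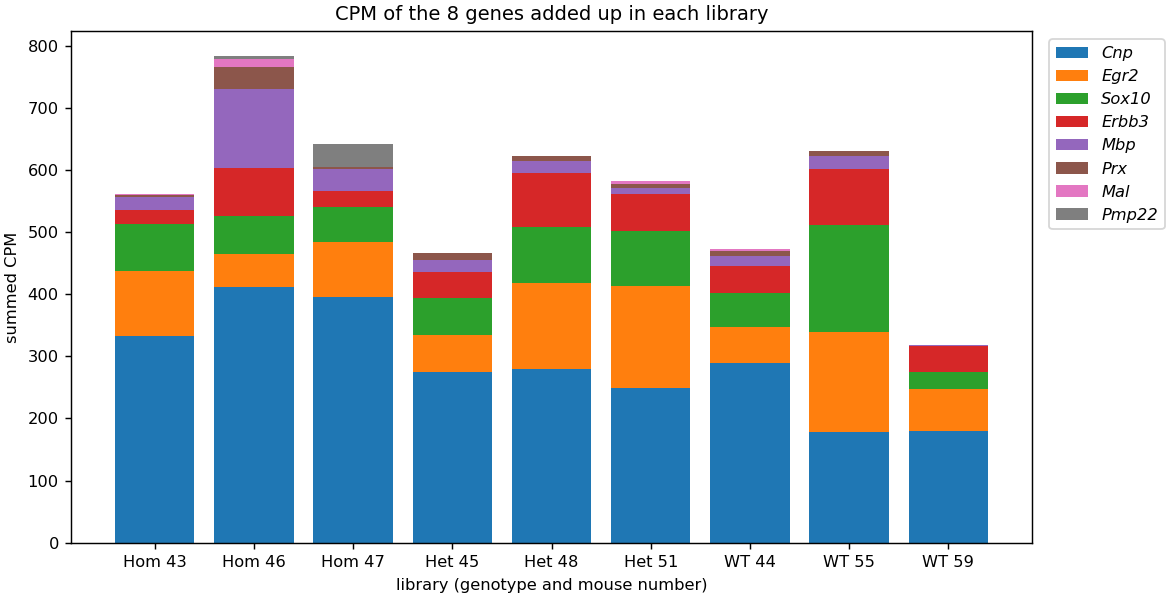
CPM of the 8 genes stacked for each library, with Hom, Het and WT libraries from left to right on the horizontal axis and summed CPM on the vertical axis, which starts at 0. The tallest stack is Hom 46 at 784 CPM and the shortest WT 59 at 318 CPM, and the myelin genes *Mbp*, *Prx*, *Mal* and *Pmp22* form a visible layer mainly in Hom 46 and Hom 47.

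The 2 Hom libraries rich in sheath transcripts did not hold the same mixture. For each read of *Mbp* there were 0.0444 of *Pmp22* in Hom 46, but 1.08 in Hom 47. *Mal* was at 13.3 CPM in Hom 46 and at 0 in Hom 47. *Mag*, the adhesion protein of the inner sheath, had 0.0720, 18.5 and 0.0323 CPM in Hom HCs, and *Cldn19*, a tight junction protein of Schwann cells, had 0, 0.110 and 10.7 CPM, so each was abundant in 1 of these 2 libraries only.

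The Schwann lineage markers were also uneven. *Cdh19*, a cadherin of Schwann cell precursors, had 0, 13.0 and 0 CPM in Hom HCs, against 0 CPM in each Het library and 0, 0.0351 and 0.0508 CPM in WT HCs. *Dhh*, the hedgehog ligand by which Schwann cells signal to the nerve sheath, had 0.0360, 23.3 and 3.59 CPM in Hom HCs, against at most 0.0679 CPM in Het HCs and at most 0.134 CPM in WT HCs. Hom 46 was the highest library for both, while *Gjb1*, a gap junction gene of myelinating Schwann cells, was at 0 in all 3 Hom libraries, against up to 1.78 CPM in Het HCs and up to 2.41 CPM in WT HCs. *L1cam*, a glial precursor and non-myelinating marker, had 0.0360, 0 and 0 CPM in Hom HCs. It had 0.988 to 4.16 CPM in Het HCs and 0.0894 to 13.2 CPM in WT HCs. Of the 11 tested markers of that kind, 5 had a log2 fold change above 0 in Hom vs WT, with a median of -0.40. Hom 46 also had the highest mesenchyme sum, 928 CPM, and 437 CPM of the collagen gene *Col1a2*, which had 31.9 to 146 CPM in the other 8. The part of mesenchymal cells in the result was not tested. *Mag*, *Cldn19*, *Cdh19*, *Dhh*, *Gjb1*, *L1cam* and *Col1a2* were picked out after their values had been seen.

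**Figure D4:**
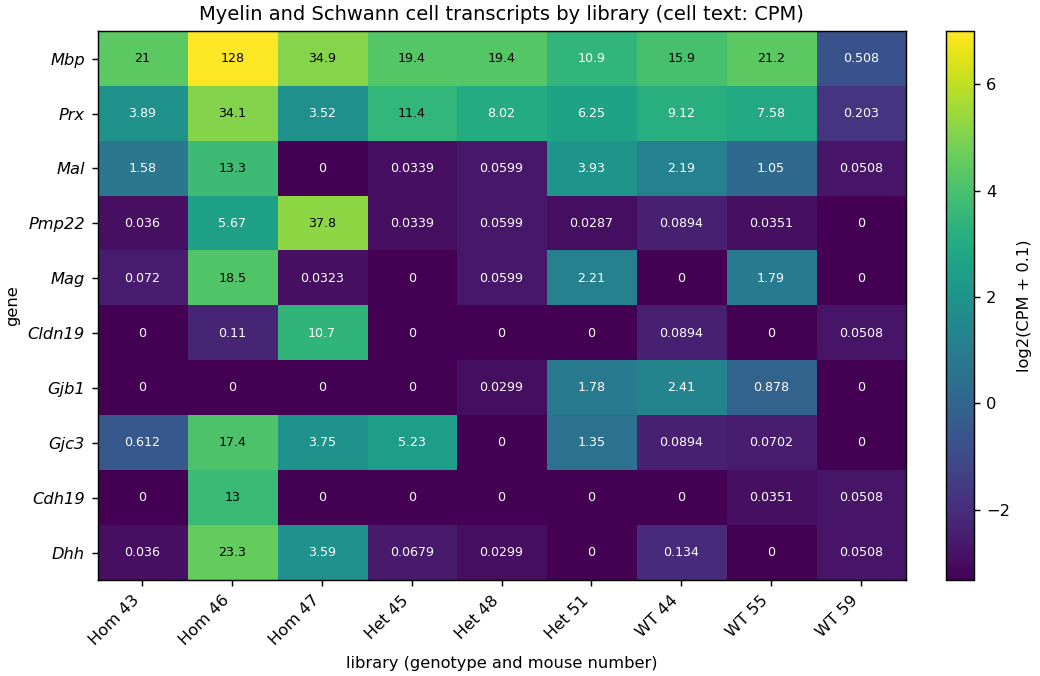
Level of the 4 sheath members and of 6 further myelin or Schwann cell genes (rows) in the 9 libraries (columns, Hom, Het and WT from left to right), coloured by log2 of CPM plus 0.1 with the CPM written in each cell. Hom 46 is bright for most rows, and Hom 47 for *Pmp22*, *Mbp* and *Cldn19*.

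Across the 9 libraries, the 28 pairs among the 8 members had a median Pearson correlation of log2 CPM of 0.28, between -0.37 for *Egr2* and *Cnp* and 0.91 for *Mbp* and *Prx*. For *Mbp* and *Prx* Spearman's rho was 0.32, and the Pearson correlation without Hom 46 was 0.87. WT 59 was the lowest library for both genes, with 10 and 4 reads, and the correlation without it was not computed. *Cnp* had a correlation of 0.73 with *Mbp* and of 0.73 with *Pmp22*. The libraries share their depth and composition, and these values are descriptions.

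The genes whose log2 CPM over the 9 libraries was most like a member were, by Pearson correlation, *Khdrbs1* for *Sox10* (0.96), *Cdc42ep1* for *Egr2* (0.97), *Ltbp3* for *Erbb3* (0.96) and *Enho* for *Cnp* (0.96). They were *Fzd9* for *Mbp* (0.99), *Gm3150* for *Prx* (0.99), *Lhx1os* for *Mal* (0.97) and *Slc23a3* for *Pmp22* (0.996). None of these genes is itself a member.

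The wider pathways of myelin formation were followed in lists that do not include the members. Of the compact myelin and membrane proteins, 12 of 17 listed genes were tested and 0 were called in any of the 3 comparisons. Their 2 most abundant genes were *Cadm4*, an adhesion protein between Schwann cell and axon, with a mean of 468 CPM in Hom, 336 CPM in Het and 382 CPM in WT HCs, and the tetraspanin gene *Cd82*, with 225, 208 and 224 CPM in the same order. The difference was smaller than the spread between libraries for *Cd82*, and for *Cadm4* the log2 fold change for Hom vs WT was 0.22 ± 0.25 (SE, n = 3 each, edgeR adjusted p = 0.779). Of the myelin lipid genes, 8 of 10 were tested and 0 called. *Scd2*, a desaturase that supplies unsaturated fatty acids, averaged 482 CPM in Hom, 604 CPM in Het and 519 CPM in WT HCs, and *Ugt8a*, the enzyme of galactosylceramide synthesis, averaged 105 CPM in Hom, 98.6 CPM in Het and 109 CPM in WT HCs.

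Of the Schwann cell transcription regulators, 11 of 16 were tested and 0 called. The most abundant were *Sox2*, which holds Schwann cells in the immature state and is also a gene of inner ear epithelium, at 298 CPM in Hom, 298 CPM in Het and 320 CPM in WT HCs, and *Id4*, an inhibitor of bHLH factors. *Id4* had 170, 232 and 183 CPM in Hom HCs, against 261, 245 and 310 CPM in Het HCs and 342, 368 and 320 CPM in WT HCs. Its Hom libraries were below all Het libraries and these below all WT libraries, but with a log2 fold change of -0.90 ± 0.24 for Hom vs WT (SE, n = 3 each, edgeR adjusted p = 0.103) it was not called, though DESeq2 (adjusted p = 0.0109) and 3 other of the 17 alternatives called it. Of the neuregulin and axon signalling genes, 12 of 15 were tested and 0 called. The phosphatase gene *Ptpn11*, which acts downstream of ErbB receptors, averaged 299 CPM in Hom, 289 CPM in Het and 242 CPM in WT HCs, and *Bace1*, the protease that activates neuregulin, averaged 246 CPM in Hom, 243 CPM in Het and 216 CPM in WT HCs.

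Among the glial precursor and non-myelinating markers, 11 of 13 were tested and 0 called. The cadherin gene *Cdh2* averaged 133 CPM in Hom, 225 CPM in Het and 166 CPM in WT HCs, and the adhesion molecule gene *Mcam* averaged 141 CPM in Hom, 101 CPM in Het and 86.1 CPM in WT HCs. Of the 9 listed relatives of *Pmp22* and *Mal*, 5 were tested and 0 called. *Mal2*, a relative of *Mal* in epithelial transport, averaged 28.7 CPM in Hom, 22.9 CPM in Het and 19.6 CPM in WT HCs, and *Emp1*, a relative of *Pmp22*, averaged 16.4 CPM in Hom, 15.0 CPM in Het and 12.6 CPM in WT HCs.

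In all 7 lists together 66 genes were tested and 1 was called in Hom vs WT, which is 1.52%, close to the 1.15% of all genes. That gene was *Dag1*, among 10 tested genes of basal lamina receptors and polarity. It encodes dystroglycan, a laminin receptor that in Schwann cells belongs to the complex with periaxin, and that other epithelia make too. *Dag1* had 154, 195 and 249.1 CPM in Hom HCs, against 236, 361 and 361 CPM in Het HCs and 326, 528 and 385 CPM in WT HCs. All Hom libraries were below all WT libraries. It fell in Hom HCs, with a log2 fold change of -1.13 ± 0.27 for Hom vs WT (SE, n = 3 each, edgeR adjusted p = 0.0696). The call was lost in 8 of 17 alternatives, among them the fits without any 1 of Hom 43, Hom 46, Hom 47, Het 51, WT 55 or WT 59, with adjusted p up to 0.304 and log2 fold changes between -1.32 and -0.94. *Utrn*, a cytoskeletal partner of dystroglycan, averaged 94.0 CPM in Hom, 92.4 CPM in Het and 120 CPM in WT HCs, within the spread between libraries. Like the members themselves, the lists were chosen with earlier results of these data known.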

How the data were processed

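RNA of sorted HCs was sequenced in 9 libraries, 3 per genotype. Quality control was with FastQC, alignment to GRCm38 with HISAT2 2.0.4 and counting with HTSeq, all by the authors. The deposited values are raw counts for 43808 genes, with no normalization. The methods give a lower RNA integrity for 1 WT and 1 Hom sample without naming them. They also give a lower range of sorted cell numbers for Hom samples than for WT or Het samples, with overlap of the ranges. The part of cell number in the results was not tested. Samples were grouped by the genotype in their labels. Replicates of a genotype differed by a chi-square of 103 to 254 per gene and were counted separately.

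CPM were computed from the library totals, and TPM from exon lengths of GENCODE vM21, which held 43756 of the gene IDs. Genes that reached 20 reads in 2 or more libraries of a genotype (15184) were tested with edgeR 4.0.16 (TMM, robust quasi-likelihood test, all 9 libraries, Benjamini-Hochberg over all genes tested), and called with an adjusted p under 0.1 (a false discovery rate of 10%) and more than 1.5-fold change. With 3 mice against 3, an exact permutation test of 1 gene cannot go below p = 0.1. The SE of an edgeR fold change was taken as its absolute value divided by the square root of the test's F statistic. It is an approximation, and F uses the spread estimated over all 9 libraries. R 4.3.3, Python 3.11.15 and pandas 2.3.3 were used.

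The members and lists were chosen with earlier results of these data known. The genes named were the members, the called genes of each list with, where fewer than 2 were called, its 2 of highest mean CPM, and the gene most like each member. Other genes, of cell type and early response markers or overlapping a member, were named after their values were seen. Some genes that this rule names are not reported here. Alternatives were DESeq2 1.42.0, limma-voom 3.58.1, other scalings and filters, and each library left out.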

Additional observations from a re-analysis of the deposited data

How the results depend on the processing

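No paired analysis was possible because each number marks 1 mouse and no number is shared between genotypes, and the litter of each mouse was not found in the labels or the paper. Of 395 alternative fold changes of the members, 357 kept their direction and their side of the threshold, 32 turned and 6 became called. Among the 210 of these that left out 1 library, 19 turned and 1 became called. In Hom vs WT, where 0 of the 8 genes were called, DESeq2 called 2, the fit without a filter on low counts 2 and the fit without WT 44 called 1, so that leaving out 1 library gave between 0 and 1. In Hom vs Het DESeq2 called 1, which was *Pmp22*, with the limit given above. Over any genotype DESeq2 called 1 and the fit without a filter 2, and leaving out 1 library gave between 0 and 2, the highest without WT 44, where 2.17% of all genes were called, against 1.86% without a filter and 0.178% with all libraries and the filter.

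limma-voom turned the log2 fold change of *Mal* to -0.84 in Hom vs WT, -0.45 in Het vs WT and -0.40 in Hom vs Het, that of *Prx* to -0.54 in Hom vs Het and that of *Erbb3* to -0.11 in Het vs WT. Leaving out both WT 59 and Hom 46 gave, in Hom vs WT, -1.22 for *Prx* and -1.09 for *Mal*. It gave, in Het vs WT, -0.13 for *Erbb3*, -0.22 for *Mbp*, -0.020 for *Prx* and -0.32 for *Mal*, and in Hom vs Het -1.20 for *Prx* and -0.77 for *Mal*. It also turned *Cadm4* in Hom vs WT, to -0.026. The causes were not tested.

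With 1 library left out, log2 fold changes in Hom vs WT lay between -0.88 and 0.58 for *Sox10*, -0.55 and 0.27 for *Egr2*, -0.65 and 1.79 for *Prx*, and -0.54 and 3.11 for *Mal*. In Hom vs Het they lay between -1.20 and 1.18 for *Prx* and -0.78 and 6.59 for *Mal*. In Het vs WT they lay between -0.57 and 0.88 for *Sox10*, -0.025 and 0.82 for *Egr2*, -0.30 and 0.44 for *Erbb3*, -0.23 and 0.94 for *Mbp*, -0.033 and 1.07 for *Prx*, -4.46 and 1.21 for *Mal*, and -0.59 and 0.88 for *Pmp22*. The direction of *Cnp* and *Mbp*, above 0, and of *Erbb3*, below 0 (-1.36 to -0.14), held in Hom vs WT in every one of these fits. *Pmp22* stayed above 0 there in the 7 fits that included it.

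The difference in summed CPM lay, with 1 library left out, between 111 and 267 CPM for Hom minus WT, 5.24 and 162 CPM for Het minus WT, and 44.8 and 156 CPM for Hom minus Het. Leaving out both WT 59 and Hom 46 gave 50.02 CPM for Hom minus WT. As a mean of log2 CPM over the members, in which low genes weigh as much as *Cnp*, the differences were 1.26, 0.44 and 0.83 on the log2 scale for Hom minus WT, Het minus WT and Hom minus Het. Depth limits *Mal* and *Pmp22* most, since 3 reads correspond to 0.0860 to 0.165 CPM.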
